A study of Mus musculus with 8 samples.

Results

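The sense strand of the 3′ region of Ube3a was examined in RNA of the newborn mouse cerebral cortex, over a 40-kb span of chromosome 7 from 66526901 to 66566852 (mm9, plus strand) that lies inside an engineered deletion. The region holds 674 of the 53834 distinct probes on a custom Agilent array, of which 50496 tile both strands of the span from 65890585 to 67700765 on the same chromosome. Of the 674 probes, 311 carry catalogue names of the manufacturer and 363 were added for this array. The probes were chosen by position, and the borders were selected on the measured plus-strand signal of the single-deletion arrays against wild type, so those contrasts are given as a description with no test.

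Ube3a encodes an E3 ubiquitin ligase, an enzyme that marks proteins for degradation. In neurons it is read mainly from the maternal chromosome, because the paternal copy is kept low while a long antisense RNA, Ube3a-ATS, runs across it from the direction of Snrpn. Loss of the maternal copy in people causes Angelman syndrome, and removal of the paternal antisense RNA is known to raise the paternal copy in neurons. Glial cells are known to read both copies.

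The mice were C57BL/6 at postnatal day 0 (P0), and cortical RNA was copied into first-strand cDNA with Cy5, which keeps the strand of its RNA. The maternal deletion (del s-u/+, n = 1) lacks the Snrpn to Ube3a span on the maternal chromosome, so that the region is present there on the paternal chromosome alone. The paternal deletion (del +/s-u, n = 1) lacks the span on the paternal chromosome, so that only the maternal copy of the region is left. Wild-type littermates of these mutants gave 2 samples. The double deletion (n = 2) carries the maternal deletion together with a paternal deletion of the Snrpn promoter, from which the antisense RNA is known to start, and the labels designate its 2 forms 0.9 and 4.8. Sample titles and genotype entries swap these designations, so the samples are called double deletion 1 and 2 and neither is assigned to a form. PolyA RNA purified from both wild-type RNAs gave 2 further arrays. The number of animals per sample is not given, so the spread behind each p-value may be technical, and in cortex fewer cells of a type and less RNA per cell cannot be told apart.

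The median red intensity of all spots lay between 98 and 161 on the 6 total RNA arrays, against a local background of 36 to 38. On the polyA arrays it was 45 and 44, against a background of 34. Values are given on the log2 scale, with 0 set for each array at the 75th percentile of its 3338 probes from outside the tiled span. Probes carry positions and no gene names, and cell type markers were not analysed here.

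The sense RNA measured here starts at the Ube3a promoter, upstream of the region, beyond its lower border. The promoter is shown because it begins the transcript whose 3′ region was measured. In RefSeq's annotation of GRCm38.p6 it spans chr7:59228500-59228799 on the plus strand, from 250 bases before to 50 bases after the start of the gene, and CG dinucleotides are in capitals.
Ube3a promoter: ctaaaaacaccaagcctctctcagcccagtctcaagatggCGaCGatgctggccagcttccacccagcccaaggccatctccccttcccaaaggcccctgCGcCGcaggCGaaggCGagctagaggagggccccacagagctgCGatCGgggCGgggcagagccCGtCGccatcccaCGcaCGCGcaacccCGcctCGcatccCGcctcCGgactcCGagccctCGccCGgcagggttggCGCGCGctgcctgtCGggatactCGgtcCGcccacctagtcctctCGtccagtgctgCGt
It holds 29 CG dinucleotides in 300 bases, where the median of 32851 promoters of the same length is 7 and 12.9% have as many or more. Its coordinates are on another build than the array and were not converted. No sequence of the probes was used here.

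Bright stretches of the region were found on the 2 polyA arrays alone. Both are wild type and share their RNA with the wild-type total RNA arrays, so the choice favours stretches bright in wild type. A stretch was a run of at least 2 probes whose running median over 3 probes lay at least 1 log2 unit above the median of the region on both polyA arrays, and runs within 100 bp were joined. This gave 18 stretches. Of these, 10 hold at least 1 catalogue probe (187 probes) and are called exon-like peaks, a split chosen after the data were seen. No exon annotation of mm9 was used, so the peaks are named by number and position. The other 8 stretches hold only probes added for this array (68 probes). The 292 probes more than 200 bp from any stretch form the intronic floor, and 127 probes lie between.

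The exon-like peaks carried sense signal well above the floor in every genotype. Their mean was 3.18 and 3.23 in wild type 1 and 2, 1.47 in the maternal deletion, 3.07 in the paternal deletion, and 3.08 and 2.37 in double deletion 1 and 2. The floor was at -0.10 and -0.14 in wild type, -0.60 in the maternal deletion, -0.28 in the paternal deletion, and -0.42 and -0.48 in the double deletions. Peaks therefore stood 3.28 and 3.38 above the floor in wild type, 2.08 in the maternal deletion, 3.35 in the paternal deletion, and 3.50 and 2.84 in the double deletions. Probes bind with different strength, so this gap compares arrays and gives no RNA level of an exon over an intron. All probes of the exon-like peaks were well above background on each of the 8 arrays, whereas on the floor 92.1% were in the maternal deletion and 55.8% and 43.8% on the polyA arrays.

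**Figure D1:**
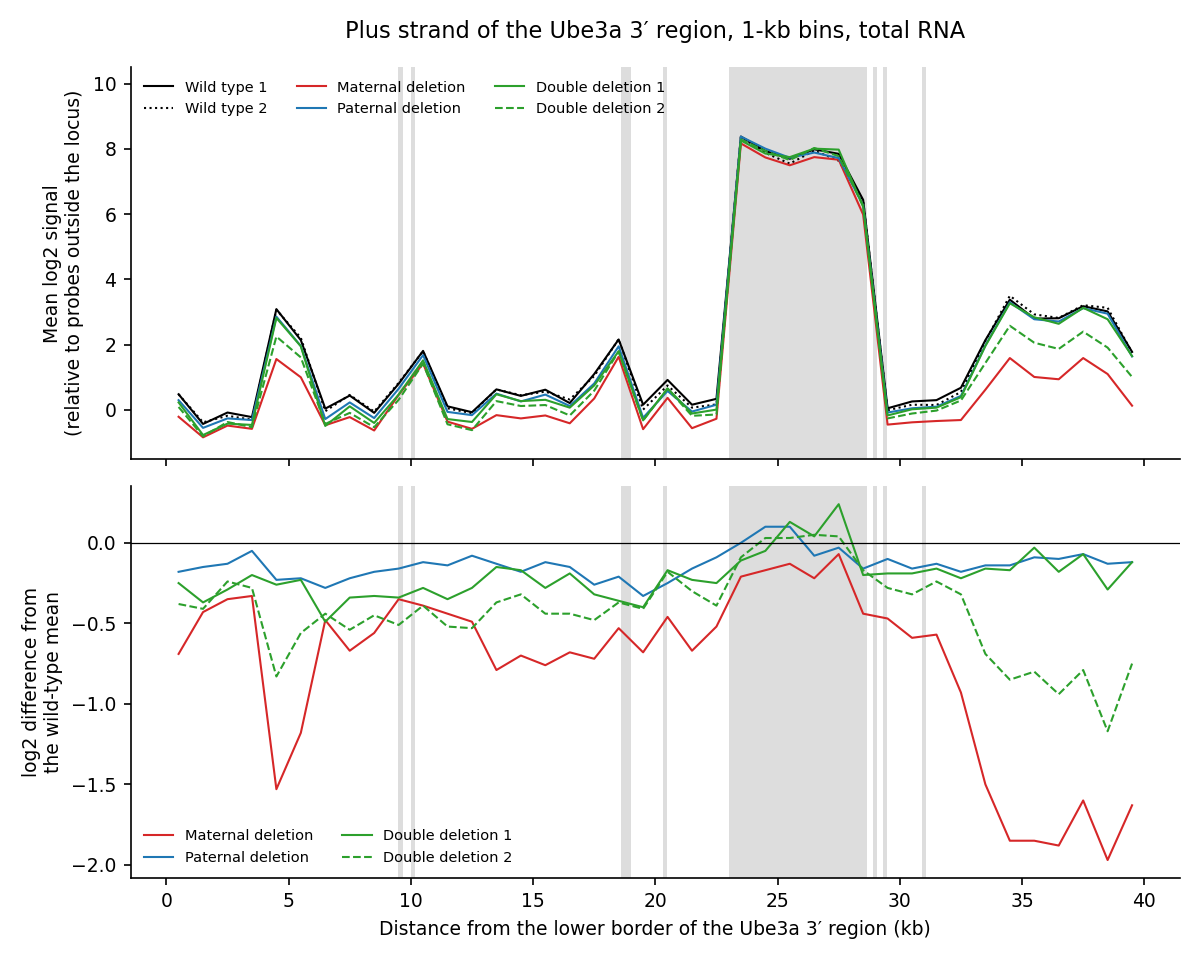
Sense signal along the region in 1-kb bins on the total RNA arrays. The upper panel gives the mean log2 signal of each bin and the lower panel the log2 difference from the mean of both wild types, both against the distance in kb from the lower border; grey marks stretches with custom probes only. The maternal deletion lies furthest below wild type at the second peak and over the last 7 kb, double deletion 2 lies between it and wild type there, and all genotypes lie together in the 5.67-kb grey block.

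Relative to wild type, the maternal deletion was lower at the exon-like peaks by 1.73 on the log2 scale (-1.73), and the paternal deletion differed by -0.14. The SD of the wild-type pair was 0.04 (n = 2). In 182 of the 187 exon-like probes the maternal deletion was below both wild types, as it was in 50.8% of all probes tested. The sign for the paternal deletion depends on the scale: it became 1.11 when arrays were scaled on all probes, a scale that moved the median probe of that contrast by 1.25, and 1.11 with quantile normalization, which moved it by 0.37. Of the 187 exon-like probes, 174 were at least 1 log2 unit lower in the maternal deletion than in the wild-type mean, against 0.733% of all 49275 probes tested, a share from which nothing is read because the region was drawn on this contrast. On the floor 10 of 289 tested probes were that much lower, and in the custom-only stretches 0 of 68. In the paternal deletion 0 of the 670 tested probes of the region were at least 1 lower, against 12.8% of all probes. Nothing is read from this either, because the borders were also selected on the paternal deletion array.

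The last peak, at the 3′ end of the region, is the longest, with 121 probes over 6.60 kb (66560214 to 66566814). Its raw median intensity was 1314.5 and 1395 in wild type 1 and 2, 358 in the maternal deletion, 1225 in the paternal deletion, and 1407.5 and 709.5 in double deletion 1 and 2. The log2 signals were 2.90 and 2.97 in wild type, 1.13 in the maternal deletion, 2.83 in the paternal deletion, and 2.81 and 2.05 in the double deletions. On a linear scale, background-subtracted and scaled in the same way, the median probe of the last peak stood at 21.0% of the wild-type mean in the maternal deletion (quartiles over probes 18.8% and 25.2%). It stood at 92.2% in the paternal deletion (83.2% and 98.5%), 87.9% in double deletion 1 (75.3% and 99.0%) and 49.0% in double deletion 2 (41.7% and 56.9%). The wild types themselves were at 97.3% and 103%. The maternal deletion was thus lowest, the paternal deletion and double deletion 1 were near wild type, and double deletion 2 lay between.

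Of the 9 other exon-like peaks, 7 likewise had the maternal deletion lowest and double deletion 2 next. Peak 2 (66531152 to 66532405), the next longest with 31 probes, was at 3.63 and 3.65 in wild type, 1.95 in the maternal deletion, 3.41 in the paternal deletion, and 3.44 and 2.81 in double deletion 1 and 2. Peak 1 (66527375 to 66527595, 4 probes), the nearest to the lower border, was at 3.89 and 3.81 in wild type, 2.26 in the maternal deletion, 3.72 in the paternal deletion, and 3.80 and 3.31 in the double deletions. Both show the maternal deletion apart from all other arrays and double deletion 2 next to it.

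Peak 7 (66540050 to 66540222, 6 probes) was at 3.84 and 3.83 in wild type, 2.04 in the maternal deletion, 3.66 in the paternal deletion, and 3.90 and 3.16 in the double deletions. Peak 8 (66541455 to 66541624, 4 probes) was at 3.71 and 3.84 in wild type, 1.82 in the maternal deletion, 3.59 in the paternal deletion, and 3.59 and 3.08 in the double deletions. Peak 9 (66542225 to 66542394, 5 probes) was at 2.92 and 2.99 in wild type, 1.23 in the maternal deletion, 2.81 in the paternal deletion, and 2.78 and 1.96 in the double deletions. These neighbours differ in level but hardly in their differences from wild type, which in the maternal deletion were -1.79, -1.96 and -1.73.

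Peak 10 (66543765 to 66544155, 9 probes) was at 3.36 and 3.46 in wild type, 1.87 in the maternal deletion, 3.17 in the paternal deletion, and 3.22 and 2.53 in the double deletions. Peak 17 (66559043 to 66559181, 3 probes) was at 3.55 and 3.62 in wild type, 1.64 in the maternal deletion, 3.41 in the paternal deletion, and 3.55 and 2.78 in the double deletions. Across the 8 peaks that include the last, the maternal deletion differed from wild type by -1.54 to -1.96. In the paternal deletion the same 8 peaks differed from wild type by -0.11 to -0.24.

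The other 2 peaks did not share this pattern. Peak 3 (66535969 to 66536055, 2 probes) was at 4.16 and 4.03 in wild type, 4.16 in the maternal deletion, 4.01 in the paternal deletion, and 4.13 and 4.24 in the double deletions. Peak 6 (66537635 to 66537774, 2 probes) was at 7.02 and 6.99 in wild type, 6.86 in the maternal deletion, 6.91 in the paternal deletion, and 6.93 and 6.96 in the double deletions. Both lie within 2 kb of each other, rest on 2 probes each and were nearly level over the total RNA arrays. They are counted with the exon-like peaks because they hold a catalogue probe.

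**Figure D2:**
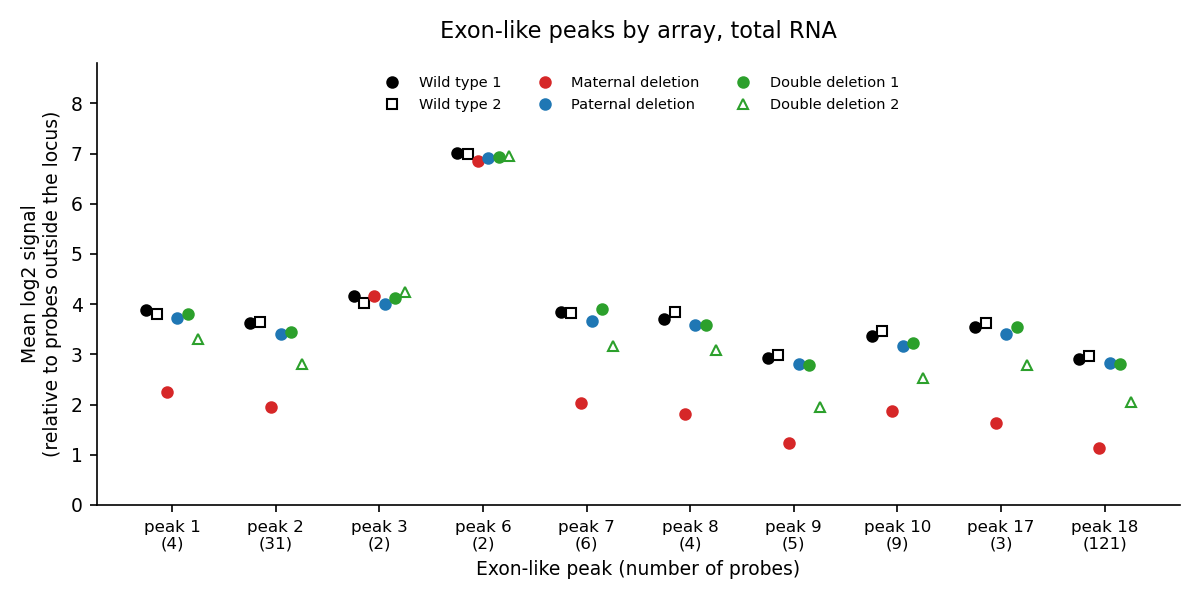
Mean log2 signal of the 10 exon-like peaks on each of the 6 total RNA arrays, with the number of probes of each peak in brackets; each symbol is 1 array. At 8 peaks the maternal deletion sits lowest, double deletion 2 next and the other 4 arrays together, while all 6 arrays lie close together at peaks 3 and 6.

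The double deletion and the maternal deletion both hold the region on the paternal chromosome alone, and they differ in the paternal Snrpn promoter. At the exon-like peaks the double deletions were higher than the maternal deletion by 1.25 on average, with 1.60 in double deletion 1 and 0.89 in double deletion 2 (SD of the pair 0.50, n = 2). At the last peak the mean difference was 1.30, with 1.68 and 0.92. Both double deletions were at least 0.5 above the maternal deletion in 164 of the 187 exon-like probes, 26 of 289 floor probes and 7 of 68 custom-only probes, where 3.06% of all tested probes met this. Both were above it by any margin in 180 of the 187 exon-like probes (30.1% of all probes) and in 9 of the 10 exon-like peaks, the exception being peak 3. The comparison uses the maternal deletion array, on which the borders were drawn, and that sample has no replicate.

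The 1-kb bins with the largest difference between double and maternal deletion all lie in the last peak. The bin starting at 66561901 was at 1.01 in the maternal deletion and at 2.84 and 2.06 in double deletion 1 and 2, a mean difference of 1.44 (SE 0.39). The bin starting at 66560901 was at 1.59 in the maternal deletion and at 3.27 and 2.58 in the double deletions, a mean difference of 1.33 (SE 0.35). The bin starting at 66562901 was at 0.94 in the maternal deletion and at 2.64 and 1.87 in the double deletions, a mean difference of 1.32 (SE 0.38). These bins were picked for this difference, so nothing is read from both double deletions lying above the maternal deletion in them. Each has an adjusted p of 0.446 in limma.

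With the double deletions as 1 group, limma called 0 of the region's 40 bins higher than the maternal deletion at an adjusted p of 0.05, against 0% of all bins tested, and 18 of the 40 had an unadjusted p under 0.05 (4.41% of all bins). With the double deletions as separate groups whose mean is compared, an alternative that takes its spread only from the 2 wild types, 21 of 40 bins were called higher (11.7% of all bins). In that fit 167 of the 187 exon-like probes were called higher (3.52% of all probes). Because the region was selected for low signal on the maternal deletion array, which these tests share, nothing is read from the shares. Without double deletion 1 the number of bins called higher was 15 (13.7% of all bins) and without double deletion 2 it was 20 (7.59% of all bins), where the lone sample is assumed to vary like the other groups. The calls thus rest on whether the difference between the double deletions counts as error.

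Against wild type, the double deletions were lower at the exon-like peaks by a mean of 0.48 (-0.48), with -0.13 in double deletion 1 and -0.84 in double deletion 2. The mean changed sign with quantile normalization, to 0.17. At the last peak the differences were -0.12 and -0.88. On the floor they were closer to each other, at -0.30 and -0.36. The median difference over the region's 40 bins was -0.35, against -0.06 over all bins.

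In limma 3 of the 40 bins were lower in the double deletion than in wild type (3.41% of all bins were) and 0 were higher (11.1% of all bins). Of the 40 bins, 19 had an unadjusted p under 0.05 in the lower direction and 0 in the higher, against 11.5% and 14% of all bins. The wild-type arrays of this test are those on which the borders were drawn, so the shares are a description. The 3 that fell start at 66527901 (-0.39, SE 0.06, adjusted p = 0.0471), 66532901 (-0.46, SE 0.07, adjusted p = 0.0442) and 66544901 (-0.37, SE 0.05, adjusted p = 0.0448). All 3 lie outside the last peak. The largest mean difference of the 40 bins, -0.73 in the bin starting at 66564901, lies in the last peak. The double deletions were apart there, at -0.29 and -1.17 from wild type, and the bin was not called (SE 0.36, adjusted p = 0.304). Among the exon-like probes limma called 0 of 187 lower (2.91% of all probes) and 0 higher (6.01%). At an unadjusted p under 0.05 there were 18 lower and 1 higher. Nothing is read from these, because the unadjusted share of all probes was not computed. On the floor 14 of 289 probes were called lower, and in the whole region 18 of 670. The count of bins was 0 without either wild type, 31 without double deletion 1 (18.9% of all bins), 16 without double deletion 2 (34.1%) and 33 with separate double-deletion groups (28.9%). It was also 0 on the scale of all probes, on the outside median, with quantile normalization and with only probes well above background on every total RNA array. The share of all bins called was not computed for these alternatives, so they show only that the calls depend on the processing.

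The bins in which wild type was dimmest were floor bins near the lower border. The bin starting at 66527901 was at -0.43 and -0.38 in wild type, -0.84 in the maternal deletion, and -0.77 and -0.81 in the double deletions. The bins starting at 66529901 and 66528901 had wild-type values of -0.22 and -0.30 and of -0.08 and -0.18. In these bins, picked as the dimmest, the double deletions stood near the level of the maternal deletion, with a mean difference of 0.05 to 0.08. Over all floor probes the difference was 0.16, with 0.19 and 0.13 in double deletion 1 and 2, against 1.25 at the exon-like peaks. The offset used in the background correction compresses log2 differences of such dim probes. On the linear, background-subtracted scale the median floor probe stood at 46.9% of the wild-type mean in the maternal deletion. It stood at 71.5% and 64.4% in double deletion 1 and 2. The exon-like peaks stood at 23.2% in the maternal deletion and at 85.5% and 50.8% in the double deletions. The floor thus also differed between these genotypes, by less than the peaks in double deletion 1 and 2.

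The strand opposite the last peak, which carries the antisense RNA, gave another order of arrays. It was at 1.38 and 1.40 in wild type, 1.28 in the maternal deletion, -0.79 in the paternal deletion, and -0.60 and 0.10 in double deletion 1 and 2. The array with the lowest sense signal, the maternal deletion, thus had antisense signal near wild type, and double deletion 2 held more antisense and less sense signal than double deletion 1. Whether one follows from the other was not tested.

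**Figure D3:**
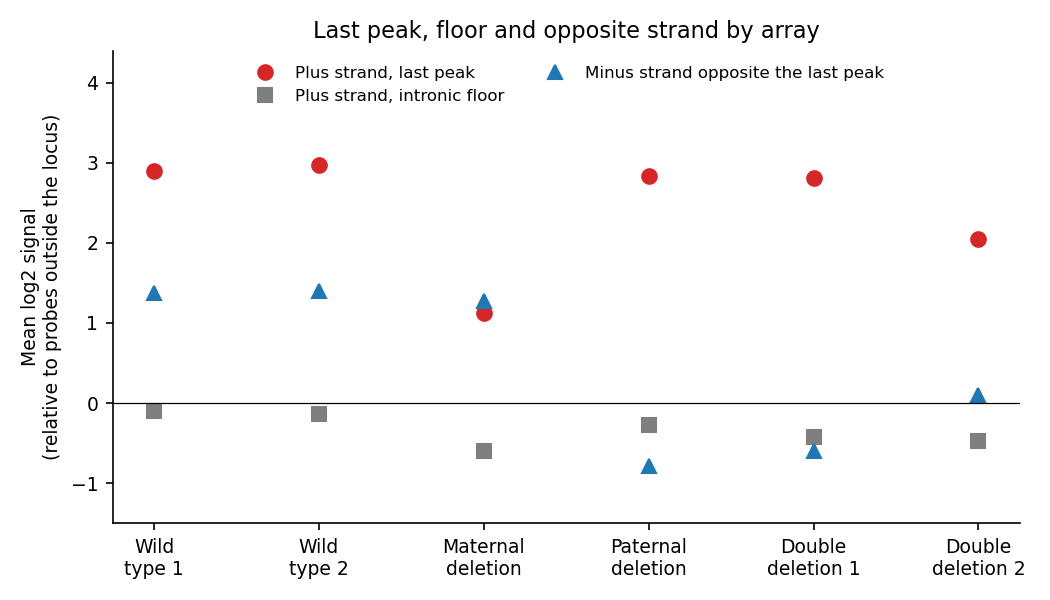
Mean log2 signal of the last peak (121 probes), of the intronic floor of the plus strand and of the minus strand opposite the last peak on each total RNA array; each symbol is 1 array. In the maternal deletion sense and antisense lie at 1.13 and 1.28, whereas in the paternal deletion they lie at 2.83 and -0.79.

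The custom-only stretches held the brightest bins of the region. Their mean was 7.65 and 7.54 in wild type, 7.42 in the maternal deletion, 7.60 in the paternal deletion, and 7.60 and 7.62 in the double deletions. Between 4 and 10 of their 68 probes were saturated on each total RNA array, where a difference cannot be read, and no exon-like or floor probe was. Over the 57 probes saturated on none of these arrays the means were 7.47 and 7.35 in wild type, 7.24 in the maternal deletion, 7.43 in the paternal deletion, and 7.44 and 7.45 in the double deletions. The longest stretch runs over 5.67 kb (66549925 to 66555594, 52 probes), and the 3 brightest bins of the region in wild type, starting at 66549901, 66552901 and 66550901, lie in it. The opposite strand of these stretches was also bright, at 4.94 and 4.93 in wild type, 4.84 in the maternal deletion and 4.89 in the paternal deletion. Their share of repeats or cross-binding probes was not analysed here. The mean over all 674 probes was 0.77 in the maternal deletion against 1.60 and 1.58 in wild type, a difference of -0.82, and it was -0.89 over the 606 probes outside these stretches.

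PolyA RNA and total RNA of both wild types were set against each other. The last peak was at 3.25 and 3.34 in polyA RNA of wild type 1 and 2, against 2.90 and 2.97 in total RNA. The 9 other exon-like peaks together were at 3.25 and 3.21 in polyA RNA, against 3.69 and 3.72. Relative to these 9 peaks the last peak was 0.80 and 0.89 higher in polyA RNA in pair 1 and 2, a contrast that 1 scale factor per array leaves as it is.

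Within the last peak the difference between polyA and total RNA grew toward the 3′ end. It was -0.12 in the bin starting at 66559901 and -0.05 in the next, neither past the threshold. It was then 0.29, 0.37, 0.59 and 0.57 in the following bins and 0.77 (SE 0.08) in the last, which starts at 66565901. These 5 bins rose in limma relative to the outside probes (adjusted p = 0.00216 in the last). The last peak was found as bright on the same polyA arrays, which favours such calls. On the median of outside probes 0 bins of the region rose. The bin of peak 2 that starts at 66530901 fell by 0.53 (SE 0.05, adjusted p = 0.00111). Between peak 2 and the last bin the differences were 1.20 and 1.46 apart in pair 1 and 2. The direction at peak 2 depends on the background correction. On the linear, background-subtracted scale its median probe in polyA RNA 1 and 2 stood at 181% and 187% of wild-type total RNA. The last peak stood at 350% and 389%, so it lay above peak 2 in this contrast on both scales.

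The custom-only stretches were lower in polyA RNA, at 5.49 and 5.37 against 7.65 and 7.54, and 62 of their 68 probes fell (40.9% of all probes did). In the last peak 58 of 121 probes rose (32% of all probes). The stretches were found as bright on the same polyA arrays, which favours rises in them, so nothing is read from that share. Over the region 9 of 40 bins fell (40.5% of all bins) and 10 rose (25.7%). With the replicate pairs as a block 11 fell (42%) and 9 rose (26.3%). The split depends on the scale. It was 6 lower and 34 higher on the 75th percentile of all probes, which moved the median probe by 1.34. On the median of outside probes, which moved it by -0.81, the split was 39 lower and 0 higher. The shares of all bins called on these scales were not computed, so nothing further is read from these counts.

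**Figure D4:**
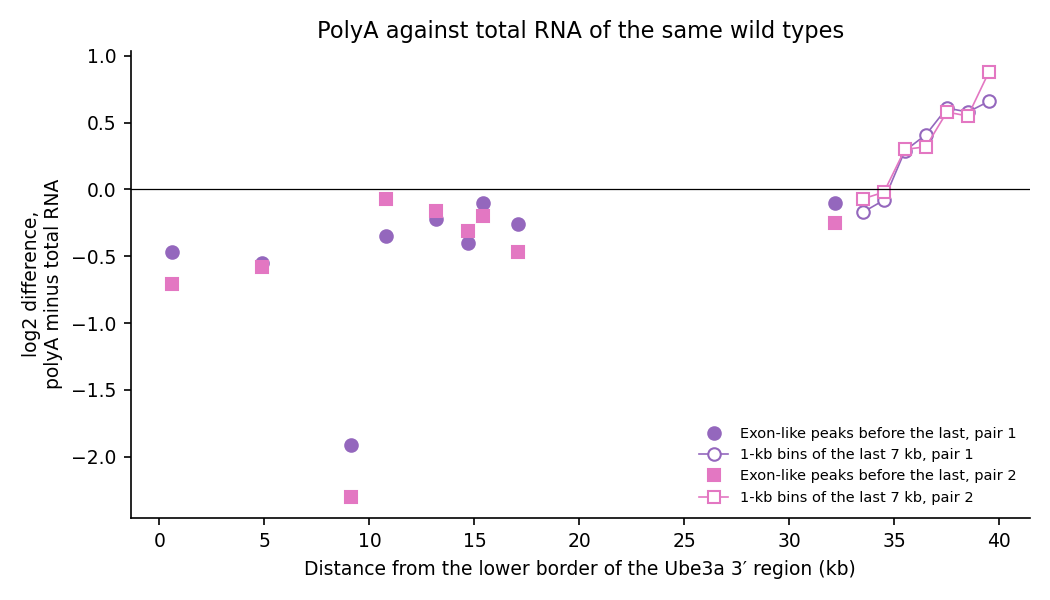
Log2 difference of polyA minus total RNA for each wild-type pair, against the distance in kb from the lower border, for the exon-like peaks before the last (filled) and for the 1-kb bins of the last 7 kb (open, joined by lines). In both pairs the values of the last 7 kb go up toward the 3′ end, and peak 3 lies lowest.

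At the lower border the sign of the maternal difference turned. The 3 plus-strand probes just outside differed from wild type by 0.91 in the maternal and 0.60 in the paternal deletion, and the first 3 inside by -0.43 and -0.20. At the upper border no such turn was seen. The last 3 probes inside differed by -1.43 in the maternal deletion and the first 3 beyond by -1.74. These are the values that placed the borders, so they carry no test.

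Sense signal went on past the upper border at a lower level. In the first kb beyond it the mean was 1.45 and 1.14 in wild type, 0.02 in the maternal deletion, 1.04 in the paternal deletion, and 0.82 and 0.80 in the double deletions. The last kb inside was at 1.98 and 1.97 in wild type, 0.29 in the maternal deletion, 1.83 in the paternal deletion, and 1.86 and 1.12 in the double deletions. Over the first kb beyond the border the double deletions were level with each other, at -0.47 and -0.50 from wild type. In the last kb inside they were apart, at -0.11 and -0.85. In the first 3 probes beyond the border they were still apart, at -0.34 and -0.67. PolyA RNA was 0.79 above total RNA in the last kb inside and 0.44 below it (-0.44) in the first kb beyond. The sign of each depends on the scale given above, and the first 3 probes beyond the border were at 0.25.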

How the data were processed

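The deposited scanner files hold red-channel (Cy5) intensity of each spot, 1 array per sample, made with Agilent Feature Extraction 10.7.3.1 per the file headers (10.9 per the submitters' processing notes), on build mm9. All 8 arrays lay on 1 slide with 1 scan. The median intensity was background-corrected with normexp (offset 50) in limma 3.58.1 under R 4.3.3 and put on the log2 scale. Spots marked as outliers were dropped, spots of a probe averaged, and each array scaled on the 75th percentile of its outside-locus probes. Probes that all arrays of 1 or more groups measured well above background were tested, singly and in 1-kb bins of at least 5 probes, with limma (two-sided, Benjamini-Hochberg over both strands, threshold 0.05). The 6 total RNA arrays in 4 groups formed one fit and the 4 wild-type arrays the other. Tested on simulated data for double deletion against wild type (3517 bins), it called 97 of 100 bins changed by 1 log2 unit, 100 of 100 changed by 2 and 11 unchanged ones. The simulated spread was preset and alike for all groups. In the bins of the last peak the double-deletion pair had an SD of 0.37 to 0.62, so these counts do not carry over to them. The regions named are the peaks, the 3 brightest and 3 dimmest bins in wild type, the 3 bins with the largest difference of double against maternal deletion, and the borders. The region, its rule and the lists were chosen with earlier results of these data known. PolyA arrays come from the same RNA as the wild-type arrays of their number, per the labels; deviations of the same number correlated at r = 0.19 over 43784 probes. Alternatives covered scale, background, filter, grouping, bin width, peak rule and each replicate. The authors' series matrix of deposited intensity, each array times its own factor, holds no probe outside the locus and kept its own scale.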

Additional observations from a re-analysis of the deposited data

How the results depend on the processing

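Each alternative changes 1 choice, with 2 exceptions. The series matrix differs in background correction and scale, and holds only 18408 of the 57933 spots, so its values and bins rest on fewer probes. Scanner subtraction uses the scanner's own subtracted signal with no offset, and sets scaled values under 1 to 1. Peaks were split by catalogue probes after seeing the data, exon probes could not be taken from sequence (not run), and dim floor probes in polyA RNA limit that comparison. The maternal deletion minus wild type at the exon-like peaks (-1.73) was -1.38 with quantile normalization, -1.82 without background correction, -2.01 with scanner subtraction, -1.90 in the series matrix, -1.68 with a peak threshold of 0.5 and -1.80 at the last peak only. The paternal difference (-0.14) became 1.11 on the 75th percentile of all probes, 1.11 with quantile normalization and -0.27 in the matrix. The double deletion minus wild type (-0.48) became -0.01 on all probes and 0.17 with quantile normalization. Without single replicates these lay between -1.76 and -1.71, -0.17 and -0.11, and -0.84 and -0.13. The double minus maternal difference (1.25) kept its sign, and lay between 0.89 and 1.60 without single replicates.

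PolyA minus total RNA at the exon-like peaks (0.07) was 1.41 on all probes, -0.75 on the outside median, 0.46 on bright outside probes, 1.76 with quantile normalization, 0.32 without background correction, 1.59 with subtraction, -0.35 in the matrix, 0.37 at the last peak only and -0.02 over catalogue probes, and 0.04 to 0.09 without single replicates. The cause was not tested. With the replicate number as a block, pairing the arrays, 11 bins were lower and 9 higher in polyA RNA (9 and 10 without).

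The gap of peaks over floor in wild type (3.33) was 2.63 with quantile normalization, 3.59 without correction, 4.25 with subtraction, 3.61 in the matrix, 3.22 with probes bright on all total RNA arrays, 3.21 at threshold 0.5 and 3.05 at the last peak, and 3.28 to 3.38 without single replicates. In the maternal deletion (2.08) it was, in that order, 1.71, 2.38, 3.23, 2.37, 2.00, and 1.73 at the last peak. In the double deletion (3.17) it was 4.21 with subtraction, and 2.84 to 3.50 without single replicates.

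Bins lower in double deletion than in wild type (3) numbered 0 on all probes, 0 on the outside median, 0 with quantile normalization, 1 with subtraction, 5 in the matrix, 0 with probes bright on all total RNA arrays, 33 with separate double deletions and 13 with all 8 arrays in the fit, and 0 to 31 without single replicates. Bins higher than in the maternal deletion (0) numbered 21 with separate double deletions, and 0 to 20 without single replicates. Bins lower in polyA RNA (9) numbered 39 on the outside median, 14 with quantile normalization, 18 with subtraction, 26 in the matrix and 5 at 2 kb, and 8 to 10 without single replicates. Bins higher (10) numbered 34 on all probes, 0 on the outside median, 30 on bright outside probes, 3 in the matrix, 4 with all arrays and 5 at 2 kb, and 6 to 7 without single replicates.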

Other observations

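Upstream of the region, over all probes of a plus-strand span of the same length (713 probes), the order of the arrays differed from that over all 674 probes of the region. Mean log2 signal there was 0.89 and 0.82 in wild type 1 and 2, 1.53 in the maternal deletion, 1.29 in the paternal deletion, and 1.60 and 1.88 in double deletion 1 and 2. All mutants lay above both wild types here. Double deletion 2, which was below double deletion 1 over the region (1.13 against 1.37), was above it upstream.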
